A study of Mus musculus with 5 samples.

Results

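The citric acid cycle and the reactions that feed it with pyruvate and amino acids were described in mouse gastrocnemius muscle through 34 genes. The genes were taken from a list by their symbols and not by measured values. All 34 symbols were found among the 35275 gene identifiers of the deposited table through the GENCODE M21 annotation. They comprised 14 genes of the cycle, 11 of pyruvate entry, 5 of branched-chain amino acid breakdown and 4 of amino acid exchange.

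The cycle oxidises acetyl units to carbon dioxide in the mitochondrial matrix and passes the electrons to the respiratory chain. Pyruvate enters the matrix through a carrier and is turned into acetyl-CoA by the pyruvate dehydrogenase complex, which kinases switch off and phosphatases switch on. Muscle is a main site of the first step of branched-chain amino acid breakdown, and its aminotransferases link amino acids with the intermediates of the cycle.

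The samples were 5 gastrocnemius muscles of female NSG mice, an immunodeficient strain carrying the scid allele, labelled genotype Wild Type, at week 12 of age. All had received the same treatment, 10 tail-vein injections over 5 weeks, each of about 10 µg of extracellular vesicles labelled MCF-10A/miR122. The vesicle donor is the human breast epithelial line MCF-10A, which forms no tumours, and miR-122 is a microRNA abundant in liver. Muscle was collected 2 days after the last injection. The samples form 1 group, so the comparisons below are between genes within a library and between libraries, and no level is set against untreated muscle. Whether the 5 numbers stand for 5 animals is not spelled out in the labels, so SDs and p-values cover only the variation among these samples, part of which may be technical.

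The libraries held 16674504 to 25407988 reads. Library 3 stood apart, with a Pearson r across genes of 0.961 to 0.970 with the others, against at least 0.981 among the other libraries. This correlation runs over genes, which are not independent. The 8 slow fibre markers summed to 4365 FPKM (read counts scaled by gene length and library total) in library 2. Their sum was 1303 in library 3 and 1422 to 1942 in the others. Summed levels in library 3 exceeded all others for 7 regenerating muscle markers (226 against 44.1 to 88.3 FPKM), 7 macrophage markers (348 against 89.8 to 117) and 4 adipocyte markers (261 against 36.7 to 131). The muscle label held, with 46693 (library 2) to 71486 FPKM (library 4) for 8 fast fibre markers. Tnnc2, the fast troponin C, was however at 0.39 to 4.67 FPKM. Erythroid (889.5 against 308 to 463 FPKM) and fibroblast markers (1021 against 562 to 767) were also highest in library 3, and endothelial markers were at 59.1 to 79.7 FPKM. The 4 hepatocyte markers summed to at most 1.32 FPKM, with Alb at 0 in libraries 1 and 2. In bulk tissue, fewer cells of a type and less RNA per cell cannot be told apart.

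The 34 genes were expressed at high levels for this tissue. The mean level was at least 100 FPKM for 17 of them, against 4.58% of the 10710 genes with a mean of 1 FPKM or more, which are called the tested genes below. Of the 34 genes, 33 were tested, and Pdk3 lay below that level. The median of the mean levels was 175 FPKM for the 14 cycle genes, 147 for the 4 genes of amino acid exchange, 75.3 for the 10 tested genes of pyruvate entry and 31.1 for the 5 branched-chain genes, against 6.004 FPKM over all tested genes. The cycle median exceeded that of amino acid exchange in 4 of 5 libraries. In library 3 the order was turned, with 127 FPKM for the cycle and 139.7 for amino acid exchange. When the 34 genes were ordered by mean, the ranges of neighbouring genes overlapped in 31 of 33 pairs. Within libraries, 8 of the 33 pairs kept their order in all 5, and 6 of these had overlapping ranges, Mdh2 over Got2 and Idh3b over Pdhb among them. The ranges did not overlap between Suclg2 and Pdk1 or between Mpc1 and Pdk3.

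**Figure D1:**
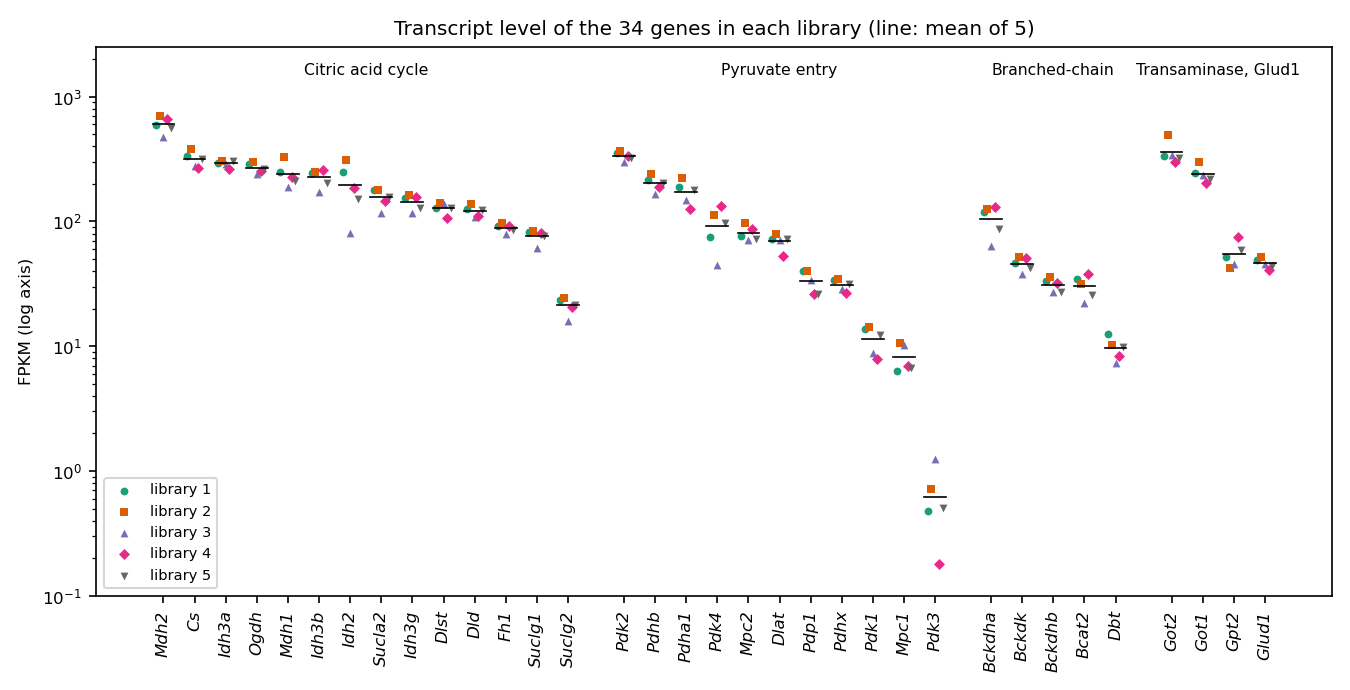
Transcript level in FPKM (log axis) of the 34 genes in each of the 5 libraries, by gene group; points are libraries and lines are means. Mdh2 was highest at 599 FPKM and Pdk3 lowest at 0.62 FPKM.

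Among the genes of the cycle, the last enzyme was the most abundant. Mdh2, the mitochondrial malate dehydrogenase (ENSMUSG00000019179, GRCm38 chromosome 5, 135778480 to 135790398), was at 593, 699, 479, 660.0 and 563 FPKM in libraries 1 to 5, a mean of 599 ± 85.7 (SD, n = 5). Library 3 was the lowest and library 2 the highest. Mdh1, its cytosolic counterpart in the malate-aspartate shuttle, was at 249, 326, 188, 227 and 212 FPKM. Mdh2 exceeded Mdh1 in all 5 libraries, by a log2 ratio of 1.33 ± 0.16 on the log2(FPKM + 1) scale. The size of that ratio rests on the gene lengths the authors used, since it was 0.31 with the annotated exon lengths of GENCODE M21.

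Cs, the citrate synthase that joins acetyl-CoA to oxaloacetate (chromosome 10, 128337734 to 128362479), was at 337, 381, 279, 268 and 316 FPKM, a mean of 316 ± 45.7. Library 2 was the highest, and libraries 4 and 3 were the lowest and lay close together. Of the 3 subunits of the NAD-dependent isocitrate dehydrogenase, the catalytic Idh3a varied least of all 33 tested genes against genes of like level. It was at 296, 305, 287, 263 and 305 FPKM, with a coefficient of variation (CV) of 5.99%. Its partner subunits were lower and had CVs of 16.6% for Idh3b (226 ± 37.6 FPKM) and 13.9% for Idh3g (144 ± 20.1 FPKM). The log2 ratio of Idh3a to Idh3g was above 0 in all 5 libraries, at 1.02 ± 0.23, and was 0.32 with annotated exon lengths.

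Idh2, the mitochondrial NADP-dependent isocitrate dehydrogenase (ENSMUSG00000030541, chromosome 7, 80094846 to 80115392), varied most of the tested 33 genes. Its level was 248, 309.7, 80.6, 186 and 151 FPKM in libraries 1 to 5, a mean of 195 ± 88.0 (SD, n = 5) with a CV of 45.1%. Library 3 was the lowest, at less than any other library, and library 2 was 3.84-fold higher than it. Without library 3 the mean was 224 FPKM and the CV 31.2%. Counting error alone would give a CV of 1.33%. As a log2 ratio, Idh2 over Idh3a was -0.26, 0.02, -1.82, -0.50 and -1.01. At the deposited lengths Idh2 lay above Idh3a in library 2 alone, and with annotated exon lengths in libraries 1 (0.29), 2 (0.56) and 4 (0.042). The mean of that ratio, -0.71 ± 0.73, was -0.44 without library 3 and -0.17 with annotated exon lengths.

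The 2-oxoglutarate dehydrogenase complex oxidises 2-oxoglutarate to succinyl-CoA. Its first enzyme Ogdh was at 269 ± 25.7 FPKM and its E2 core subunit Dlst at 128 ± 13.3 FPKM. Dld, the E3 subunit that this complex shares with the pyruvate and branched-chain complexes, was at 121 ± 12.0 FPKM. All 3 had CVs of 9.55% to 10.4%, below the median of 16.3% over all tested genes. Dlst was the only cycle gene with its lowest level in library 4 (106 FPKM against 128 to 139) under both scalings of the libraries.

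Succinyl-CoA ligase makes a nucleoside triphosphate, and its beta subunit sets which one. Sucla2, the ATP-forming subunit, was at 179.8, 178, 117, 146 and 157 FPKM. Suclg2, the GTP-forming subunit, was at 23.4, 24.5, 16.1, 20.8 and 21.4 FPKM. Both had their lowest level in library 3, and their ratio stayed within the narrowest range of the 18 ratios examined. On the log2 scale the ratio of Sucla2 to Suclg2 was 2.89, 2.81, 2.79, 2.76 and 2.82, a mean of 2.81 ± 0.05, or 7.03-fold to 7.68-fold on the FPKM scale. The shared alpha subunit Suclg1 was at 76.8 ± 9.37 FPKM, below Sucla2 and above Suclg2. Its CV of 12.2% was 3.85% without library 3. Fh1, the fumarate hydratase, was at 88.9 ± 7.05 FPKM with a CV of 7.93%.

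Transport of pyruvate into the matrix needs both carrier subunits. Mpc2 was at 76.2, 96.3, 71.4, 87.0 and 72.5 FPKM, and Mpc1 at 6.36, 10.6, 10.2, 6.99 and 6.68 FPKM. Mpc2 exceeded Mpc1 by a log2 ratio of 3.18 ± 0.31 in the 5 libraries. Mpc1 shares 23.1% of its annotated exon bases with a gene on the opposite strand, and 29.6% of the 50-base words of its longest coding transcript occur in transcripts of other genes, among them Mpc1-ps. The sources used here do not state how reads that match several genes were counted, so the low level of Mpc1 is uncertain.

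The core of the pyruvate dehydrogenase complex was described by 4 genes. The E1 alpha subunit Pdha1, which carries the regulatory phosphorylation sites (chromosome X, 160122209 to 160138413), was at 190.0, 221, 149, 127 and 180.0 FPKM. The E1 beta subunit Pdhb was at 215, 242, 167, 190.0 and 201 FPKM. Library 2 was the highest for both, while the lowest was library 4 for Pdha1 and library 3 for Pdhb. The log2 ratio of Pdha1 to Pdhb was -0.58 in library 4 and -0.17 to -0.13 in the other libraries. Its mean of -0.24 ± 0.19 became 0.74 with annotated exon lengths, so which subunit is more abundant cannot be told from these values, while the drop in library 4 does not depend on a length. Both genes share sequence with others, Pdha1 with Map3k15 on the opposite strand (16.1% of exon bases) and Pdhb with Gm6123 (30.3% of words).

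The E2 core subunit Dlat was at 69.9 ± 10.3 FPKM and the E3-binding subunit Pdhx at 31.2 ± 3.32 FPKM. Dlat exceeded Pdhx in all 5 libraries by 1.13 ± 0.13 on the log2 scale. Dlat was lowest in library 4, at 52.4 FPKM against 71.5 to 79.9, and its CV of 14.7% was 5.14% without that library. Pdhx was also lowest in library 4 (26.9 FPKM against 28.9 to 34.8), but lowest in library 3 once the libraries were rescaled by median of ratios, which sets the median gene equal in all libraries.

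Pdk2 was the main kinase transcript of the complex. Pdk2, the widely expressed kinase isoform, was at 354, 365, 298, 332 and 323 FPKM, a mean of 334 ± 26.5 with a CV of 7.93%. Pdk4, the isoform known to rise in fasting (ENSMUSG00000019577, chromosome 6, 5483351 to 5496309), was at 75.3, 112, 44.8, 133 and 97.7 FPKM, a mean of 92.7 ± 34.1 with a CV of 36.8%. Library 4 was the highest for Pdk4 and library 3 the lowest, 2.98-fold apart, and without library 3 the CV was 23.4%. Pdk1, the hypoxia-responsive isoform, was at 11.4 ± 2.91 FPKM. Pdk3 was at 0.47, 0.71, 1.25, 0.18 and 0.50 FPKM, its highest level in library 3, where it rested on 44 reads, and its lowest, of 9 reads, in library 4.

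Of the summed FPKM of the 4 kinases, Pdk2 took 76.6% ± 5.57, Pdk4 20.6% ± 5.95, Pdk1 2.61% ± 0.57 and Pdk3 0.15% ± 0.12 (SD, n = 5). The share of Pdk4 was 17.0%, 22.8%, 12.7%, 28.2% and 22.6% in libraries 1 to 5. Among kinase reads, not scaled by length, the share of Pdk4 was 9.82% in library 3 (95% Wilson interval 9.33% to 10.3%) and 22.8% in library 4 (22.3% to 23.4%). These intervals cover counting error only and do not overlap. They use the recovered reads of Pdk4, which are likely too low by a whole factor. The read shares of Pdk4 and their intervals are therefore likely too low in every library, while its shares of FPKM do not depend on recovered reads. The summed kinase level differed less, from 352 FPKM in library 3 to 492 in library 2. Pdp1, the phosphatase that reverses the kinases, was at 33.3 ± 6.86 FPKM, highest in libraries 1 (40.0) and 2 (39.9) and lowest in libraries 5 (26.2) and 4 (26.4). On the log2 scale, Pdk4 over Pdp1 ran from 0.38 in library 3 to 2.30 in library 4, with a mean of 1.38 ± 0.76. With annotated exon lengths the mean was 0.48, but that value uses the recovered length of Pdk4 and is likely too low.

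**Figure D2:**
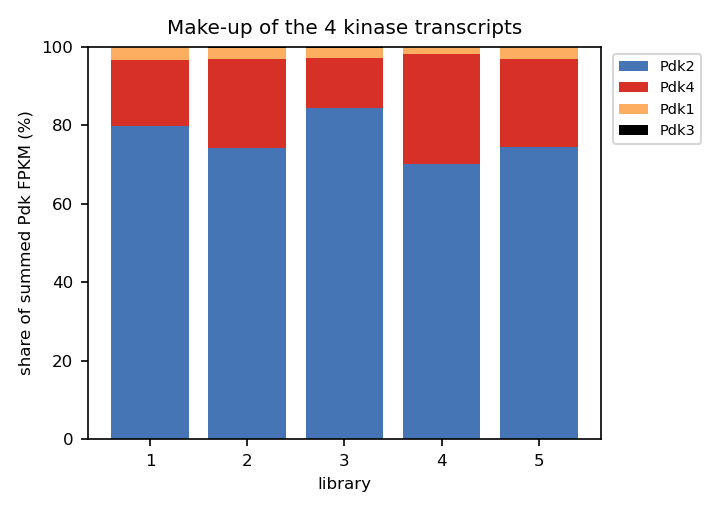
Share of each pyruvate dehydrogenase kinase gene in the summed FPKM of the 4 genes (percent, stacked bars) in libraries 1 to 5. Pdk2 took 70.1% to 84.4%, Pdk4 was largest in library 4 and smallest in library 3, and Pdk3, at up to 0.35%, is too small to be seen.

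The branched-chain genes were the least abundant group. Bcat2, the mitochondrial aminotransferase that starts the pathway, was at 34.4, 31.5, 22.2, 37.8 and 25.9 FPKM. Bckdha, the E1 alpha subunit of the branched-chain dehydrogenase, was at 118, 126, 63.7, 131 and 87.5 FPKM, a mean of 105 ± 28.7 with a CV of 27.3%. For both genes library 3 was the lowest, library 5 the next lowest and library 4 the highest. Without library 3 the CV of Bckdha was 16.8%. Bckdha shares 61.7% of its exon bases with B3gnt8 on the opposite strand and Bcat2 15.9% with 0610005C13Rik. Whether counting used strand is not stated in the sources used here, so the levels of both are uncertain.

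The partner subunits of Bckdha were lower than Bckdha and had smaller CVs, 12.7% for Bckdhb and 20.3% for Dbt, against 27.3%. Without library 3 the CV of Dbt (16.6%) was near that of Bckdha (16.8%). Bckdhb, the E1 beta subunit, was at 33.4, 36.1, 27.2, 31.9 and 27.0 FPKM, and Dbt, the E2 core, at 12.5, 10.3, 7.33, 8.37 and 9.83 FPKM. Bckdk, the kinase that switches the complex off, was at 46.3, 51.5, 37.7, 51.1 and 42.1 FPKM. Bckdk stayed below Bckdha in every library, by a log2 ratio of -1.15 ± 0.26, and that ratio was nearest to 0 in library 3, at -0.74. Dlst exceeded Dbt, its counterpart E2 enzyme, by 3.61 ± 0.29 on the log2 scale (1.87 with annotated exon lengths). Pdha1 exceeded Bckdha in 4 of 5 libraries, with log2 ratios of 0.68 to 1.21, and lay at -0.05 in library 4.

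Among the genes of amino acid exchange, the aspartate aminotransferases were the most abundant. Got2, the mitochondrial form, was at 336, 493, 343, 300.3 and 322 FPKM, a mean of 359 ± 76.7. Library 2 stood above the other libraries, and without it the CV fell from 21.4% to 5.73%. Got1, the cytosolic form, was at 245, 299, 234, 203 and 219 FPKM and was also highest in library 2. Got2 exceeded Got1 by a log2 ratio of 0.57 ± 0.09, which was -0.06 with annotated exon lengths, so the order of the pair rests on the length used. Of the words of Got2, 47.2% occur in other transcripts, mainly of Gm10874 and Got2-ps1.

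Gpt2, the mitochondrial alanine aminotransferase, went another way. It was at 51.8, 42.3, 45.3, 75.5 and 58.6 FPKM, highest in library 4 and lowest in library 2, where Got1 and Got2 were highest. The log2 ratio of Got2 to Gpt2 ran from 1.98 in library 4 to 3.51 in library 2, a mean of 2.70 ± 0.57. Glud1, the glutamate dehydrogenase that releases 2-oxoglutarate from glutamate, was at 46.3 ± 4.17 FPKM and varied by 1.26-fold between libraries.

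**Figure D3:**
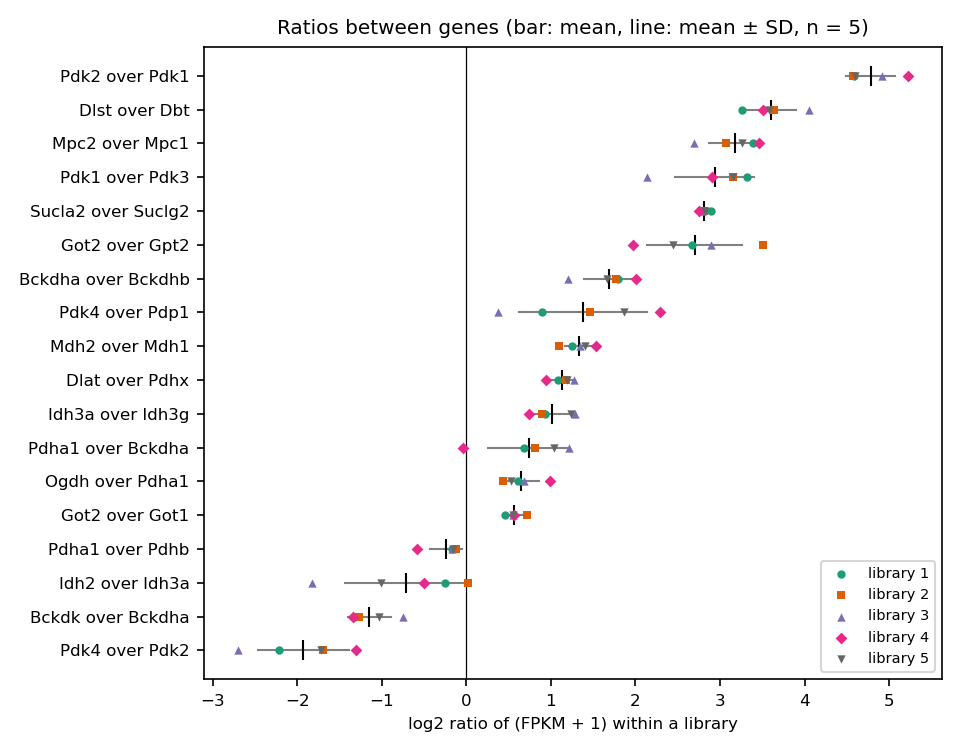
Log2 ratio of (FPKM + 1) between 2 genes of the same library for 18 pairs; points are libraries, the tick is the mean and the line the mean ± SD of 5. Sucla2 over Suclg2 spanned the narrowest range, 2.76 to 2.89, and Idh2 over Idh3a and Pdha1 over Bckdha lay on both sides of 0.

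At the deposited lengths, the order within a pair was the same in all 5 libraries for 16 of the 18 pairs. With annotated exon lengths this held for 14, since Pdk4 lay below Pdp1 in library 3 (log2 ratio -0.50) and Got2 above Got1 in library 2 alone (0.091). The value of -0.50 uses the recovered length of Pdk4, which is likely too short. Whether Pdk4 falls below Pdp1 there, and so the count of 14, is therefore uncertain. For each of these 16 an exact sign-flip permutation test over 32 sign patterns (two-sided) gave p = 0.0625, or 0.0703 after Benjamini-Hochberg adjustment over the 18 pairs. No smaller p exists for 5 samples, and 0.05 cannot be reached in this design. For the other pairs, Idh2 with Idh3a and Pdha1 with Bckdha, p was 0.125 in the same exact test, with 1 and 4 of 5 ratios above 0. Such ratios do not depend on how the libraries are scaled to each other, apart from the pseudocount of 1.

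Across libraries, the genes of the cycle and of its feeding reactions were low in library 3 and mostly high in library 2. None of the 33 tested genes had its highest level in library 3, where 37.4% of all tested genes had theirs. The lowest level was in library 3 for 19 of the 33 genes, against 17.1% of all tested genes, and in library 4 for 10, against 38.0%. The highest level was in library 2 for 24 genes, against 23.2% of all tested genes, and in library 4 for 5, against 10.5%. Of the remaining genes, 3 were highest in library 1 (21.2% of all tested genes) and 1 in library 5 (7.68%), while 2 were lowest in library 5 (24.9%), 1 in library 2 (9.80%) and 1 in library 1 (10.2%). Without library 3, 24 were highest in library 2 (41.1% of all tested genes) and 16 lowest in library 4 (43.5%). Under median-of-ratios scaling, 26 genes were lowest in library 3 (27.3% of all tested genes), including the same 19, and again none was highest there. Under that scaling 14 were highest in library 2 (16.03% of all tested genes) and 13 in library 4 (23.1%), so the place of library 2 depends on the scaling. The deviation of the median tested gene in library 4 was -0.10 on the log2 scale as deposited and -0.01 after that scaling. Slow fibre markers also had their highest sum in library 2 (4365 FPKM) and their lowest in library 3 (1303 FPKM). Fast fibre markers had their lowest sum in library 2 (46693 FPKM). Markers of regenerating muscle, macrophages and adipocytes were highest in library 3. The part of fibre type or of these cells in the levels of the 33 genes was not tested.

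All 4 groups had their lowest list score in library 3. The list score is the mean over the genes of a list of their deviation from their own mean on the log2(FPKM + 1) scale. In library 3 it was -0.29 for the cycle, -0.37 for the branched-chain genes, -0.17 for pyruvate entry and -0.08 for amino acid exchange, against a mean deviation of 0.10 over all tested genes. In library 2 the scores were 0.24, 0.18, 0.27 and 0.16 in the same order of groups. The 4 core genes of the pyruvate dehydrogenase complex had scores of -0.13 in library 3 and -0.27 in library 4 as deposited, and of -0.21 and -0.16 after median-of-ratios scaling, so which library is lowest depends on the scaling. With the median over genes in place of the mean, pyruvate entry (-0.18) and amino acid exchange (-0.20) were also lowest in library 4. The cycle had 11 of 14 genes and the branched-chain group 4 of 5 with their lowest level in library 3. Pyruvate entry had 4 of 10 lowest there and 4 in library 4, namely Pdha1, Dlat, Pdhx and Pdk1, and the latter count is near the 38.0% of all tested genes that were lowest in library 4. Amino acid exchange had none lowest in library 3 and 3 of 4, Got1, Got2 and Glud1, in library 4. Differences between the groups in these counts were not tested. After median-of-ratios scaling Pdha1, Dlat and Got1 were still lowest in library 4, while Pdhx, Pdk1, Got2 and Glud1 were lowest in library 3. Bcat2, Bckdha and Gpt2 were highest in library 4 under both scalings.

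**Figure D4:**
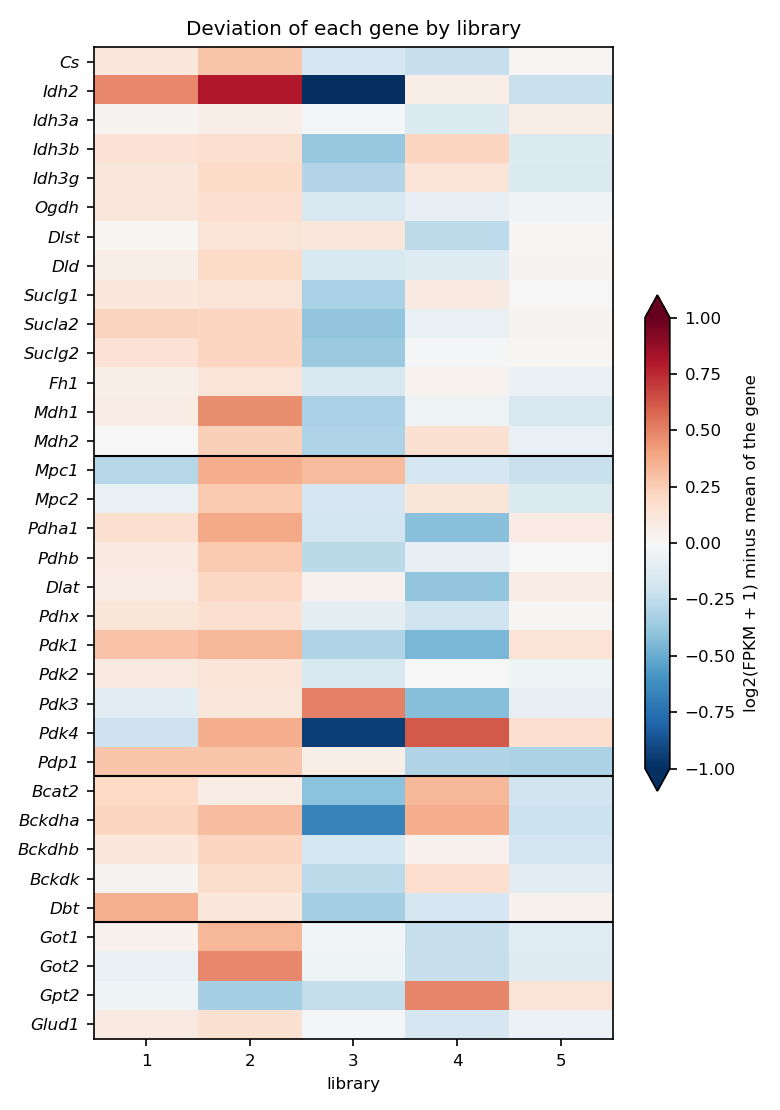
Deviation of each gene from its own mean on the log2(FPKM + 1) scale (colour, limited to -1 and 1) in libraries 1 to 5, by gene group. Idh2, Pdk4 and Bckdha are the deepest blue in library 3, and Pdha1, Dlat and Pdk1 are blue in library 4.

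**Figure D5:**
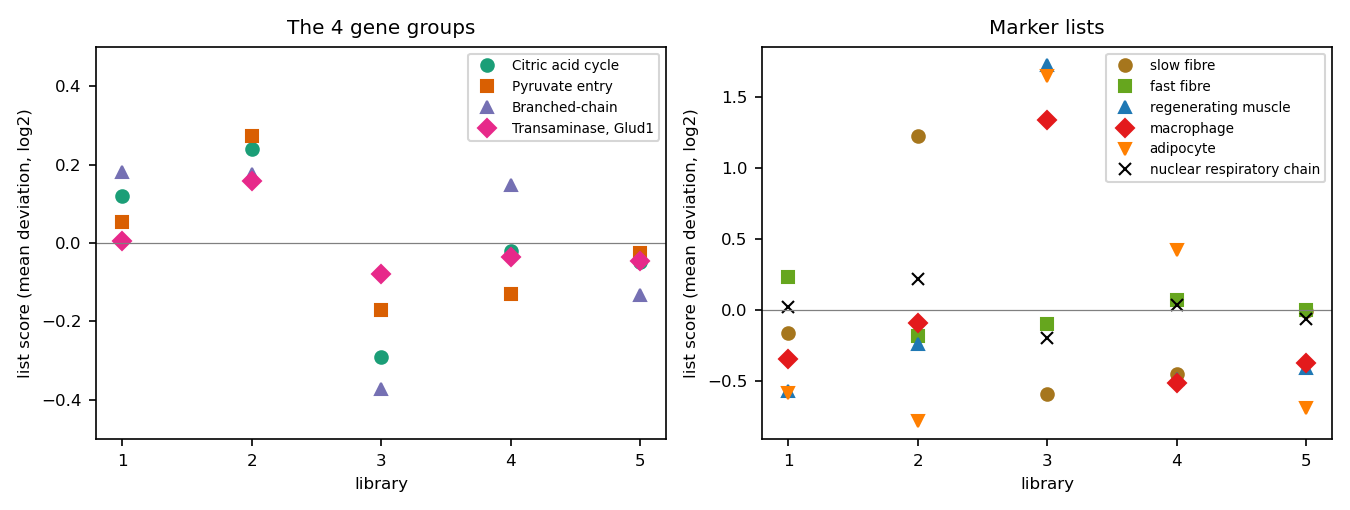
List score (mean deviation, log2) of the 4 gene groups (left) and of 6 marker lists (right) in each library; each point is 1 list in 1 library. The 4 groups are lowest in library 3, where slow fibre markers are also lowest and regenerating muscle, macrophage and adipocyte markers are highest.

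The nuclear respiratory chain, which takes up the electrons of the cycle, followed the same libraries in part. Of 11 such genes, 9 were highest in library 2 (23.2% of all tested genes) and 9 lowest in library 3 (17.1%). Their scores in these libraries were 0.21 and -0.20. After median-of-ratios scaling 4 were highest in library 2 (16.03%), 6 in library 4 (23.1%), and 10 were lowest in library 3 (27.3%). Of the 9 messenger RNAs of the mitochondrial genome, 4 were highest in library 3 (37.4% of all tested genes) and none lowest (17.1%). After median-of-ratios scaling 1 was lowest there (27.3%). Their score in library 3 was 0.13, near the 0.10 of all tested genes. In library 1, 7 were lowest under both scalings (10.2% of all tested genes as deposited).

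All 33 tested genes varied between libraries by more than counting error (chi-square test of recovered reads, Benjamini-Hochberg adjustment), as did 87.9% of all tested genes. At 140.0 reads or more per library, counting error was small for these 33 genes, so this share is near the background. The spread of a gene was then set against that of genes of like level with limma. After Benjamini-Hochberg adjustment no gene passed 0.05, neither among the 33 nor among all tested genes (0.00%), and the lowest adjusted p of the 33 was 0.682. Before adjustment 0.05 was passed by 5.75% of all tested genes and by Idh2 (limma adjusted p = 0.682, spread 3.81 times the trend) and Pdk4 (limma adjusted p = 0.764, 3.22 times). Without library 3, Idh2 alone among the 33 passed before adjustment. In data simulated for these genes the adjusted test recovered 0 of 50 genes with 16 times the trend SD and 26 of 50 with 64 times, so the design detects only very large spreads. Of the 33 genes, 11 varied less than the trend, with Idh3a (0.44 times), Pdk2 (0.57) and Fh1 (0.61) the lowest, against 51.4% of all tested genes.

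Other genes of the same pathways were measured in the same libraries. The succinate dehydrogenase subunits Sdhb and Sdha, which link the cycle to the respiratory chain, were at 415 ± 57.8 and 319.6 ± 37.9 FPKM. Of 9 tested genes of the list of other cycle and succinate dehydrogenase genes, 6 were highest in library 2 and 2 in library 3, and 7 were lowest in library 3. The shares of all tested genes were 23.2%, 37.4% and 17.1%. After median-of-ratios scaling 5 were highest in library 2 (16.03% of all tested genes) and 7 lowest in library 3 (27.3%). Of 18 tested genes of the list of other branched-chain genes, 9 were highest in library 2 (5 after median-of-ratios scaling) and 13 lowest in library 3 (15). These counts stand against the same shares of all tested genes. Hibadh was at 68.8 ± 7.63, Acat1 at 59.0 ± 12.2 and Hsd17b10 at 53.4 ± 3.82 FPKM. None of the tested genes of the 5 pathway lists passed 0.05 in the limma test after adjustment.

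The remaining pyruvate enzymes did not share one pattern. Ldhb, the lactate dehydrogenase subunit of oxidative tissue, was at 210, 297, 70.7, 169 and 144 FPKM, which is the same order of libraries as for Idh2. Pcx, the pyruvate carboxylase that makes oxaloacetate, was at 65.9, 28.2, 34.5, 131 and 173 FPKM, highest in libraries 5 and 4 and lowest in library 2. Ldha, the muscle lactate dehydrogenase subunit, was at 2150 ± 318 FPKM and lowest in library 2. Among shuttle carriers and glutamine enzymes, Slc25a11 was at 229 ± 34.3, Glul at 135 ± 12.0 and Slc25a12 at 99.1 ± 9.34 FPKM. Of 12 transcriptional regulators of oxidative metabolism, Esrra was the most abundant at 68.8 ± 7.68 FPKM, followed by Klf15 at 16.1 ± 3.14 and Ppard at 14.01 ± 1.04, and 9 of the 12 were lowest in library 4 as deposited (38.0% of all tested genes) but 5 after median-of-ratios scaling (23.0%).

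Promoters are shown for 4 genes, namely Idh2 and Pdk4, the most variable, and Cs and Got1. Idh2, Cs and Got1 were all highest in library 2, and Pdk4 in library 4. The windows are RefSeq sequences of GRCm38.p6, 250 bases before to 50 after the gene start, 5′ to 3′ on the strand of the gene. They lie at chr7:80115301-80115600 (minus strand) for Idh2, chr6:5496229-5496528 (minus) for Pdk4, chr10:128337477-128337776 (plus) for Cs and chr19:43524556-43524855 (minus) for Got1. Capitals mark matches on either strand to the motifs AAGGTCA (estrogen-related receptor), GGGCGGG (GC box), CCGGAAG (ETS), the NRF1 palindrome, TGTTTAC (forkhead) and CACGTG (E-box).
Idh2: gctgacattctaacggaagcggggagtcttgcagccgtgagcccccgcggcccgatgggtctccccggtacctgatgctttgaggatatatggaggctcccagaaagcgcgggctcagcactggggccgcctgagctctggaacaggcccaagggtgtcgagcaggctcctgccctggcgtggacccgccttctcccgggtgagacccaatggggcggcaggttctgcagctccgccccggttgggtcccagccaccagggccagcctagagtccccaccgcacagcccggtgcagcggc
Pdk4: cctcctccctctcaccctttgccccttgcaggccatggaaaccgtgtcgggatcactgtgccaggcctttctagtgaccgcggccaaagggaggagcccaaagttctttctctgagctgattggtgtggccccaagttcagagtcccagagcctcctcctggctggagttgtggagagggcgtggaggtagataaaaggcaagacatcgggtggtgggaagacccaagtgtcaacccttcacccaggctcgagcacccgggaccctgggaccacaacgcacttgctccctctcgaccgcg
Cs: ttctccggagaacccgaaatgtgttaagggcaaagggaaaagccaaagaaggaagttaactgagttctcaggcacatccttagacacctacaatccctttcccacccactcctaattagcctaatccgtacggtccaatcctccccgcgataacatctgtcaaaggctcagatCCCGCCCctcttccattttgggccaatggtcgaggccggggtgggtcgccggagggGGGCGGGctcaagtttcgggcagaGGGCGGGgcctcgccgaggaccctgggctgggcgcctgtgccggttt
Got1: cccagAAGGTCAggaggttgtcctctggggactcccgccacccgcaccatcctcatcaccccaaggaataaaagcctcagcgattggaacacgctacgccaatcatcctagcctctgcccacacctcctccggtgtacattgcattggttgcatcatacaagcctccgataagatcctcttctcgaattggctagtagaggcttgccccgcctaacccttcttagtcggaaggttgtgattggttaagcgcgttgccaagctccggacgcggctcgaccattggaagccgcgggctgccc
The Cs window holds 3 GC boxes and the Got1 window 1 estrogen-related receptor motif, and the other windows hold none of these letters. Of the 34 genes, 31 had 41 windows in the table. The GC box was in 43.9% of these windows, against 25.6% of all 32851, and their median GC content was 60.3% against 52.7%. AAGGTCA was in 4.88% of them against 4.72% of all, CCGGAAG in 12.2% against 8.86% and CACGTG in 9.76% against 7.15%. The forkhead and NRF1 letters were in none, against 3.65% and 0.97% of all windows. A match is a description of the letters and not a site of binding.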

How the data were processed

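RNA of 5 gastrocnemius samples was sequenced after poly-A selection, per the labels' protocols. The authors deposited 1 table of FPKM values, 1 column per sample; the unit was identified from its steps, since values times gene length are whole multiples of 1 read. Per the submitters' processing notes, mm10 was the build, and the tools listed without roles were STAR 2.5, TopHat, edgeR, HTSeq 0.6.1 and DESeq2. Reads and lengths were recovered within 0.001 of a read for 20840 of 20840 genes above 0. The annotated length fitted 4544 of them. For the others a length was searched for, so the full recovery is not a check of each length. The smallest length that fits was taken where the annotated one does not. Reads can thus be too low by a whole factor, as is likely for Pdk4. They summed to 99.4% to 99.5% of library totals, and 3 reads are 0.118 to 0.180 CPM.

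The table holds FPKM, so the normalized-value test of the design was used: limma 3.58.1 (R 4.3.3) on log2(FPKM + 1) for genes with a mean of 1 or more. Symbols came from GENCODE M21 (34490 of 35275 identifiers). Alternatives were leaving out each library, pseudocount 0.1, median-of-ratios scaling, a median over genes, other filters and annotated exon lengths. Both spread tests were tested on simulated data. The 34 genes, lists, pairs and tests were chosen with earlier results of these data known; the genes named are all 34 and the 3 most abundant of each pathway list, with list markers, except 1 gene of these lists that is not reported here. Python 3.11.15, scipy 1.17.1 and statsmodels 0.14.6 were used. No columns of other samples were present. Motifs, promoters and the annotated-length alternative were chosen after seeing the data.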

Additional observations from a re-analysis of the deposited data

Results flagged for a closer look

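Among 60 sets of 5 values checked (levels, ratios, list scores and kinase shares), 2 held a sample far from the others, where chance flags about 1 in 20. Got2 was at 493 FPKM in library 2, against 300.3 to 343 in the others. The log2 ratio of Pdha1 to Pdhb was -0.58 in library 4, against -0.17 to -0.13 in the others.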

How the results depend on the processing

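No paired analysis was possible because there is 1 group. Among leave-one-out fits, a pseudocount of 0.1 and annotated exon lengths, a mean ratio changed sign only with annotated lengths, for Pdha1 over Pdhb (0.74) and Got2 over Got1 (-0.057). With median-of-ratios scaling, 14 genes were highest in library 2 in place of 24, 13 in library 4 in place of 5, and 4 lowest in library 4 in place of 10; the score of amino acid exchange in library 4 was 0.082 in place of -0.04, and with the median over members -0.20. The cause was not tested. With the other pseudocount, scaling or filters limma called 0 genes after adjustment, and Idh2 and Pdk4 remained the 2 of the 34 that passed before it. Leaving out 1 library gave 0 to 4 genes past the limma threshold (4 without library 3, none of them among the 34), 0 to 3 genes highest in library 3 (3 without library 2), 5 to 9 highest in library 4 (9 without library 2) and 10 to 16 lowest in library 4 (16 without library 3).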
